A study of Mus musculus with 12 samples.

Results

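The 10 genes described here, Gata4, Sox7, Sox17, Foxa2, Hnf4a, Fgfr1, Pdgfra, Dab2, Col4a1 and Lama1, are known from later stages as genes of the primitive endoderm. They were chosen by name and not by a cut on any measured value, but with earlier results of these data known. They are 10 of 20144 protein-coding genes of chromosomes 1 to 19 that lie in the span of the data. The study mapped contacts between chromatin and the nuclear lamina in mouse embryos of the cross (C57BL/6J xCBA) x DBA/2J by DamID, in which the bacterial adenine methyltransferase Dam is fused to lamin B1 and marks DNA near the lamina. Its 12 samples form 4 groups of 3 replicates, which are siRif1 8-cell, siControl 8-cell, siRif1 4-cell and siControl 4-cell embryos. Zygotes of the siRif1 groups received an siRNA against Rif1, whose product sets the timing of DNA replication, and zygotes of the siControl groups a control siRNA (20 µM, 17 to 18 h after hCG). All embryos were injected at the late 2-cell stage (46 to 48 h) with Tir1, membrane-eGFP and AID-Dam-LaminB1, and were kept in 500 µM auxin, which degrades the fusion, until it was removed at 66 h (8-cell) or 54 h (4-cell). Embryos were collected at 72 to 74 h (8-cell) or 60 to 62 h (4-cell). A replicate was a pool of 16 to 24 blastomeres, taken from 2 to 3 8-cell embryos or 4 to 6 4-cell embryos, so a value describes a mixture of cells.

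The primitive endoderm forms in the blastocyst from inner cell mass cells, beside the pluripotent epiblast, and gives rise to the parietal and visceral endoderm of the yolk sac. FGF signalling through its receptors favours this fate, GATA and SOX transcription factors carry it, and the maturing layer secretes a basement membrane rich in laminin and collagen IV. The embryos studied here precede that choice, and the data hold no RNA levels, so the label of the gene group could not be checked in them.

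For each group the authors deposited 1 list of lamina-associated domains (LADs), pooled over its 3 replicates. The 4 lists hold 601 to 746 LADs on a grid of 100 kb and cover 32.9 to 44.7% of a span of 2384.9 Mb. Coverage was lowest, at 32.9%, in siControl 4-cell embryos. Such lists hold neither a replicate error nor a read depth, so no test between groups was possible and no p-value is given. A gene was called LAD when its midpoint lay in a LAD. The distance to the nearest LAD border was measured from the same midpoint, and LAD coverage is the percent of the surrounding 5 Mb (2.5 Mb on each side) in LADs.

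Of the 10 genes, 5 were outside LADs in all 4 lists (Gata4, Sox7, Hnf4a, Fgfr1 and Col4a1), 2 were LAD in all 4 (Foxa2 and Lama1), and 3 were LAD at the 4-cell stage in a single list. Pdgfra and Dab2 were LAD in siRif1 4-cell embryos alone, and Sox17 was LAD in siControl 4-cell embryos alone. Thus 2 of 10 were LAD in siRif1 8-cell, 2 in siControl 8-cell, 4 in siRif1 4-cell and 3 in siControl 4-cell embryos. Of all protein-coding genes, 24.2% were LAD in siRif1 8-cell, 26.3% in siControl 8-cell, 24.0% in siRif1 4-cell and 24.7% in siControl 4-cell embryos. Among all protein-coding genes, 57.4% were outside LADs in every list, 9.66% were LAD in every list, 1.85% were LAD in siRif1 4-cell embryos alone and 4.97% in siControl 4-cell embryos alone. With 10 genes, 1 gene more or fewer moves a share by 10 points, and no share of the group is read as different from that of all genes.

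**Figure D1:**
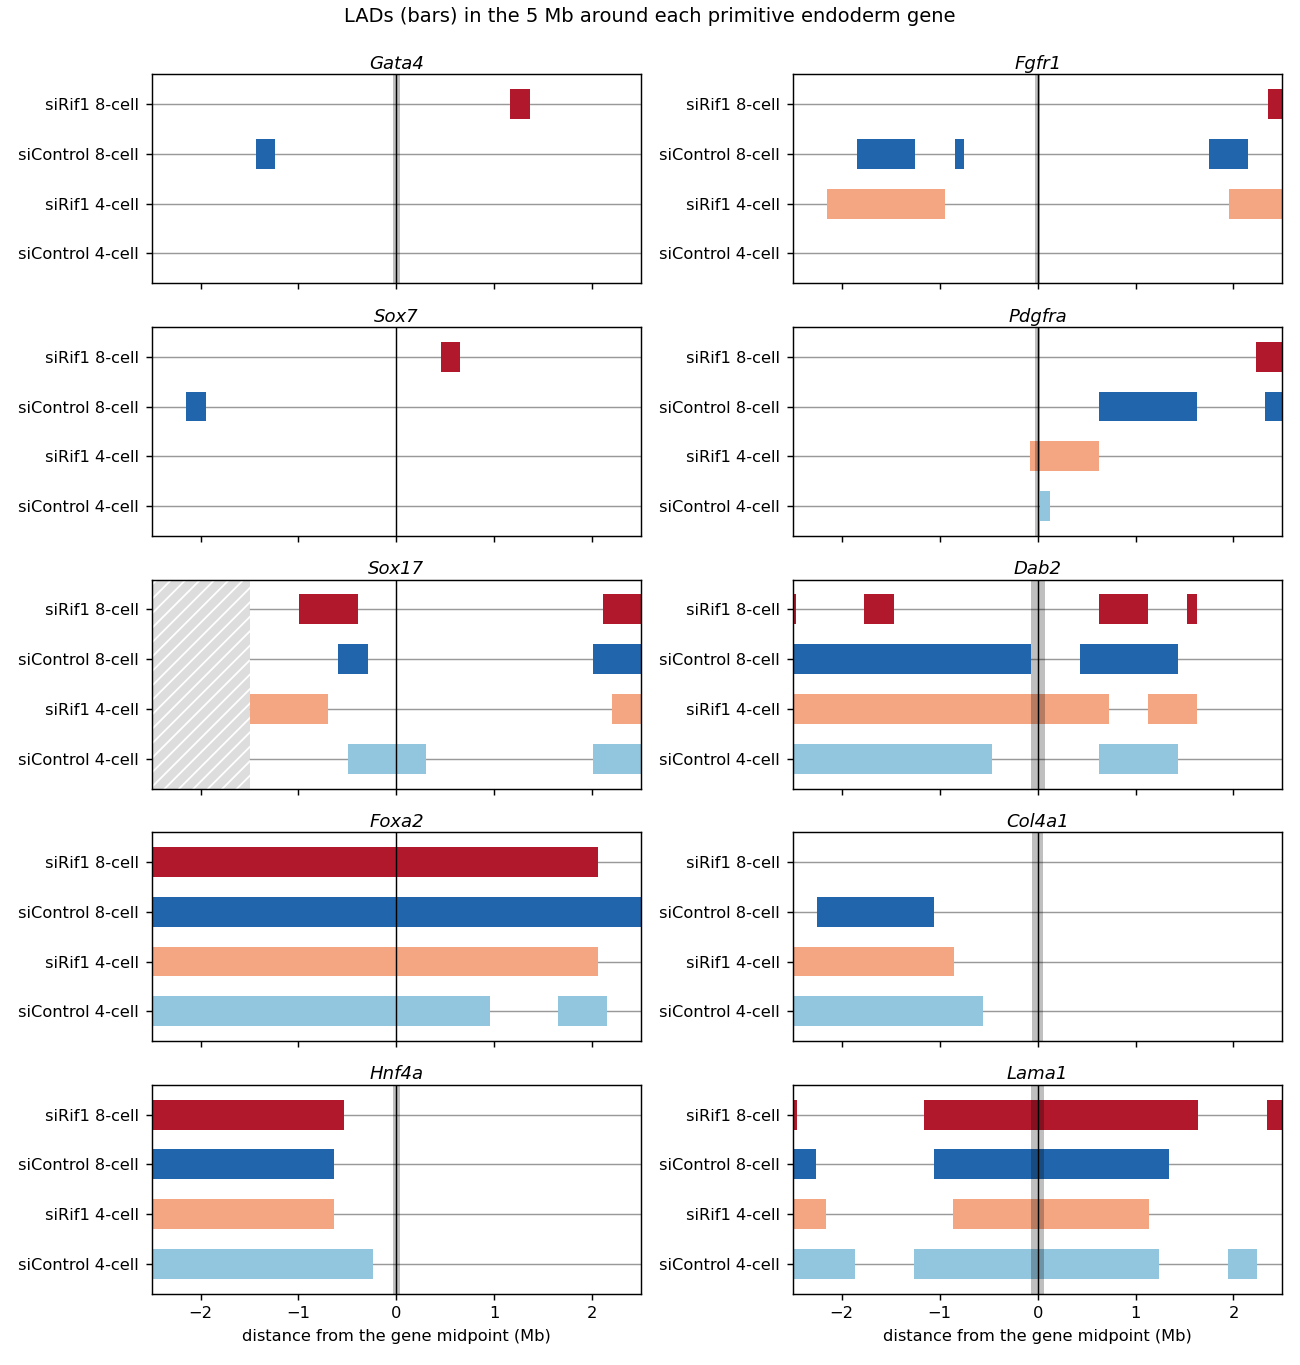
LADs (bars) of the 4 pooled lists in the 5 Mb around each gene, with the distance from the gene midpoint in Mb on the x axis, the gene body in grey and, for Sox17, the part beyond the first LAD of the chromosome hatched. Foxa2 and Lama1 lie under a bar in all 4 lists, Pdgfra and Dab2 in siRif1 4-cell embryos, and Sox17 in siControl 4-cell embryos.

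Gata4 and Sox7 encode transcription factors of the endoderm and are neighbours on chromosome 14 (Gata4 at 63198914 to 63271712, Sox7 at 63943706 to 63950732). Their midpoints are 0.712 Mb apart, so their values are not independent. Both lay in wide stretches without LADs. The nearest border to Gata4 was 1.16 Mb away in siRif1 8-cell, 1.24 Mb in siControl 8-cell, then 4.34 Mb in siRif1 4-cell and 3.34 Mb in siControl 4-cell embryos. For Sox7 these distances were 0.453, 1.95, 5.05 and 3.75 Mb in the same order. The 2 8-cell lists each held a single LAD of 200 kb in the 5 Mb around either gene (coverage 4%), at different places, and the 4-cell lists held none (coverage 0%). In siRif1 8-cell embryos that LAD lay at 64400001 to 64600000, beyond Sox7, and in siControl 8-cell embryos at 61800001 to 62000000, before Gata4. The shorter 8-cell distances rest on these LADs: with LADs under 300 kb left out, the border nearest to Gata4 was 3.94 Mb away in both 8-cell lists, and that nearest to Sox7 was 4.05 Mb away in siRif1 and 4.35 Mb away in siControl 8-cell embryos, so the stages no longer stood apart.

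Sox17, a transcription factor of the endoderm, is at 4490928 to 4497426 on chromosome 1, near the end of the chromosome that carries the centromere. All 4 lists had a LAD nearby, and these LADs differed in where they began and ended. The nearest border was 394 kb away in siRif1 8-cell, 294 kb in siControl 8-cell and 694 kb in siRif1 4-cell embryos, each time with Sox17 outside. In siControl 4-cell embryos Sox17 lay 306 kb inside a LAD. The LAD that ended before the gene was at 3500001 to 4100000 in siRif1 8-cell, at 3900001 to 4200000 in siControl 8-cell and at 3000001 to 3800000 in siRif1 4-cell embryos. In siControl 4-cell embryos a LAD of the same length as in siRif1 4-cell embryos, 0.8 Mb, lay at 4000001 to 4800000. It held 3 protein-coding genes, Sox17, Rp1 and Mrpl15. At the 4-cell stage the 2 LADs did not overlap, and the coverage of the 3.99 Mb of the window that lies in the span was 27.4% in siRif1 and 32.4% in siControl embryos. At the 8-cell stage it was 24.9% in siRif1 and 19.9% in siControl embryos. Around Sox17 the lists thus ranged from 19.9 to 32.4% LAD, and the gene itself was covered in siControl 4-cell embryos.

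Foxa2, a forkhead factor of definitive and visceral endoderm, was deep in LADs in every list. It is at 148042877 to 148046969 on chromosome 2. Its LAD spanned 132800001 to 150100000 in siRif1 8-cell embryos and 144700001 to 151400000 in siControl 8-cell embryos, which is 17.3 Mb with 78 protein-coding genes and 6.7 Mb with 52. At the 4-cell stage it spanned 144700001 to 150100000 in siRif1 (5.4 Mb, 32 genes) and 142300001 to 149000000 in siControl embryos (6.7 Mb, 49 genes). The nearest border was 2.06 Mb away in siRif1 8-cell, 3.34 Mb in siControl 8-cell, then 2.06 Mb in siRif1 4-cell and 0.955 Mb in siControl 4-cell embryos. The border after the gene was at the same place in both siRif1 lists, and the border before it at the same place in siControl 8-cell and siRif1 4-cell embryos. Coverage of the surrounding 5 Mb was 91.1% in siRif1 8-cell, 100.0% in siControl 8-cell, 91.1% in siRif1 4-cell and 79.1% in siControl 4-cell embryos. Between 95.9 and 98.8% of all protein-coding genes had a lower coverage than Foxa2 in the same list.

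Hnf4a, a nuclear receptor of visceral endoderm and liver, lies 15.5 Mb from Foxa2 on the same chromosome (163506811 to 163572907) and was outside LADs in all 4 lists. It lay beyond the end of a LAD of 3.2 to 4.3 Mb that every list had. That LAD ended 540 kb before the gene midpoint in siRif1 8-cell, 640 kb in siControl 8-cell, 640 kb in siRif1 4-cell and 240 kb in siControl 4-cell embryos. Coverage was 39.2% in siRif1 8-cell, 37.2% in siControl 8-cell, 37.2% in siRif1 4-cell and 45.2% in siControl 4-cell embryos. The border at this place differed by at most 4 bins between the lists, and the window held 88 protein-coding genes, against 13 to 56 around the other 9 genes.

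Fgfr1, a receptor tyrosine kinase through which FGF4 acts on inner cell mass cells, was outside LADs in all 4 lists. It is at 25518759 to 25575718 on chromosome 8. The nearest border was 2.35 Mb away in siRif1 8-cell, 0.747 Mb away in siControl 8-cell, 0.947 Mb away in siRif1 4-cell and 3.05 Mb in siControl 4-cell embryos. Coverage of the surrounding 5 Mb was 2.94% in siRif1 8-cell and 22.0% in siControl 8-cell embryos. At the 4-cell stage it was 34.9% in siRif1 and 0% in siControl embryos. LADs thus lay on both sides of Fgfr1 in siRif1 4-cell and siControl 8-cell embryos (at 23400001 to 24600000 and 27500001 to 30000000 in siRif1 4-cell embryos) and were far from it in siControl 4-cell and siRif1 8-cell embryos.

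Pdgfra, the PDGF receptor that marks primitive endoderm precursors, is at 75151322 to 75198206 on chromosome 5. It was LAD in siRif1 4-cell embryos and outside LADs in siControl 4-cell embryos, and the difference rests on a border that lies at the gene. In siRif1 4-cell embryos the LAD spanned 75100001 to 75800000 (700 kb), with the gene midpoint 74.8 kb inside. In siControl 4-cell embryos a LAD of 100 kb, a single bin, spanned 75200001 to 75300000 and began 25.2 kb after the midpoint. Both distances are under 1 bin. The siControl 4-cell distance hangs on that single bin: with LADs under 300 kb left out, the nearest border was 5.83 Mb away, and the state of Pdgfra in each list did not change. With every LAD extended by 100 kb at each end Pdgfra was LAD in both 4-cell lists, and with every LAD trimmed by 100 kb it was LAD in neither. At the 8-cell stage it was outside LADs by 2.23 Mb in siRif1 and by 0.625 Mb in siControl embryos, where a LAD began at 75800001. Kit, the next gene after Pdgfra and also a receptor tyrosine kinase, was LAD in siRif1 4-cell embryos alone, and Gsx2, the gene before it, was outside LADs in all 4 lists. Coverage around Pdgfra was 5.50% in siRif1 8-cell, 23.5% in siControl 8-cell, 14% in siRif1 4-cell and 2% in siControl 4-cell embryos.

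Dab2, an endocytic adaptor of the extraembryonic endoderm, is at 6299788 to 6440715 on chromosome 15. In siRif1 4-cell embryos it lay 730 kb inside a LAD of 3.8 Mb (3300001 to 7100000). In siControl 4-cell embryos it lay in a gap of 1.1 Mb, from 5900001 to 7000000, 470 kb from the nearest border. In siControl 8-cell embryos the gap was 0.5 Mb (6300001 to 6800000), with the border 70.3 kb before the midpoint, less than 1 bin. In siRif1 8-cell embryos the gap was 2.1 Mb (4900001 to 7000000), with the border 630 kb away. Dab2 was thus covered in siRif1 4-cell embryos, and the gap around it differed in width between the other 3 lists, with LADs on both sides in each. Coverage of the surrounding 5 Mb was 18.6% in siRif1 8-cell, 68.6% in siControl 8-cell, 74.6% in siRif1 4-cell and 56.6% in siControl 4-cell embryos. C9, the next gene after Dab2, was LAD in siRif1 4-cell embryos alone. Ptger4, the gene before Dab2 at 1131 kb, was LAD in all lists but siRif1 8-cell.

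RefSeq (GRCm38.p6) start sites were given here for 5 of the 10 genes, among them Pdgfra and Dab2, which were LAD in siRif1 4-cell embryos alone. The 250 bases before each of their start sites are shown because they place the starts against the LAD borders, with GATC, the site that Dam methylates, in capitals. All 3 stretches are on the + strand.
Pdgfra, chr5:75152001-75152250: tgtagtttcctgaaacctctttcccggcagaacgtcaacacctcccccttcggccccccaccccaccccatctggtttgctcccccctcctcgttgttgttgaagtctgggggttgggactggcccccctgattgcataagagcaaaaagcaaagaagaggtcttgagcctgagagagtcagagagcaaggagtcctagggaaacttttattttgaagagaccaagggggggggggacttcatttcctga
Dab2 upstream start, chr15:6299539-6299788: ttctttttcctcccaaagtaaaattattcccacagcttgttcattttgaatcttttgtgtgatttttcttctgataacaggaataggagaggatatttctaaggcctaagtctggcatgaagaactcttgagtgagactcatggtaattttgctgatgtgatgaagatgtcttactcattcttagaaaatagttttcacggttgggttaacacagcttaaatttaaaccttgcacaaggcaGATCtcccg
Dab2 downstream start, chr15:6386498-6386747: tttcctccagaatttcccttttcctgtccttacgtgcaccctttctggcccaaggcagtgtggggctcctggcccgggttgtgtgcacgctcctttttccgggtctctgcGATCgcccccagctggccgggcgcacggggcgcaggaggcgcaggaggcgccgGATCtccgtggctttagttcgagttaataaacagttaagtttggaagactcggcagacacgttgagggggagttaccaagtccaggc

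The upstream start of Dab2 (6299789) was LAD in siControl 8-cell and siRif1 4-cell embryos and outside LADs in siRif1 8-cell and siControl 4-cell embryos, because the siControl 8-cell LAD ended at 6300000. The downstream start (6386748) was LAD in siRif1 4-cell embryos alone, as was the start of Pdgfra (75152251). The state of Dab2 in siControl 8-cell embryos therefore depends on the point by which the gene is placed. The Dab2 stretches differ in base composition, with 36.8% G or C and 2 CG pairs upstream and 60.0% and 17 downstream, and the Pdgfra stretch has 54.4% and 4. Across all 32851 entries of the RefSeq table the medians are 52.4% and 6. GATC, which reads the same on both strands, occurs 0 times before the Pdgfra start, once before the upstream and 2 times before the downstream Dab2 start, and 41.9% of the table's stretches of this length hold it. GATAA, a core of the GATA factor motif, searched on both strands, occurs 1 time before the upstream Dab2 start and in neither other stretch, and 22.6% of the stretches hold it. No site can be both motifs.

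Col4a1 encodes a chain of collagen IV and is next to Col4a2, which encodes its partner chain, at 11198423 to 11312889 on chromosome 8, 14.3 Mb from Fgfr1. It was outside LADs in all 4 lists, as were Col4a2 and Irs2, the genes on either side. The nearest border was 2.66 Mb away in siRif1 8-cell, 1.06 Mb in siControl 8-cell, then 0.856 Mb in siRif1 4-cell and 0.556 Mb in siControl 4-cell embryos. Coverage of the surrounding 5 Mb was 0% in siRif1 8-cell, 24.0% in siControl 8-cell, 32.9% in siRif1 4-cell and 38.9% in siControl 4-cell embryos. The LAD that lay before Col4a1 in the other 3 lists, ending at 10200000 in siControl 8-cell, 10400000 in siRif1 4-cell and 10700000 in siControl 4-cell embryos, did not reach the window in siRif1 8-cell embryos, where the gap around the gene began at 8600001.

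Lama1 encodes the alpha chain of laminin-111, the laminin of the early embryonic basement membranes, and was LAD in every list. It is at 67697127 to 67822645 on chromosome 17. Its LAD was a block of its own, at 66600001 to 69400000 in siRif1 8-cell, 66700001 to 69100000 in siControl 8-cell, 66900001 to 68900000 in siRif1 4-cell and 66500001 to 69000000 in siControl 4-cell embryos, and held 6 to 9 protein-coding genes. The nearest border was 1.16 Mb away in siRif1 8-cell, 1.06 Mb in siControl 8-cell, then 0.860 Mb in siRif1 4-cell and 1.24 Mb in siControl 4-cell embryos. Coverage of the surrounding 5 Mb was 60.0% in siRif1 8-cell, 52.8% in siControl 8-cell, 46.8% in siRif1 4-cell and 68.8% in siControl 4-cell embryos. Unlike Pdgfra and Dab2, Lama1 was far enough inside its LAD in every list that no alternative changed its state. Its start was not given, so it was not placed by its start.

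**Figure D2:**
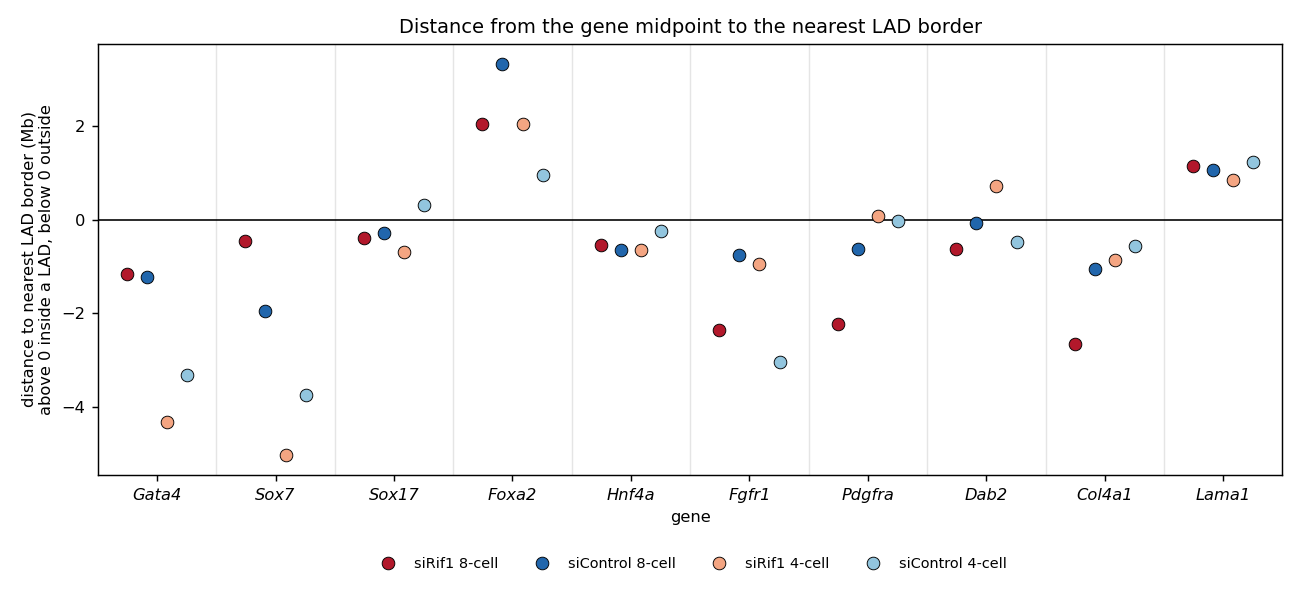
Distance in Mb from the midpoint of each gene to the nearest LAD border of the same pooled list, above 0 inside a LAD and below 0 outside. Foxa2 and Lama1 are above 0 in all 4 lists, Pdgfra at the 4-cell stage is within 100 kb of 0 in both lists, and Gata4 and Sox7 are 3.34 to 5.05 Mb outside at the 4-cell stage.

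At the 4-cell stage, where the question was which regions change lamina contact when Rif1 is depleted, 2 of the 10 genes (Pdgfra and Dab2) lay in siRif1 LADs and outside siControl LADs. Sox17 lay in a siControl LAD and outside siRif1 LADs. Of all protein-coding genes, 7.37% and 8.08% were called in these directions. Coverage of the surrounding 5 Mb was higher in siRif1 for 4 genes, lower for 4 and equal for 2. It was higher for 52.0% and lower for 34.0% of all protein-coding genes. The median difference over the 10 genes was 0 points, against 2 points for all protein-coding genes, whose central 80% ran from -16 to 28.0 points. Fgfr1 had the largest positive difference of the 10, 34.9 points, and 94.0% of all genes had a lower difference. Lama1 had the lowest, -22.0 points, and 3.68% of all genes had a lower one. The genes thus differed in both directions, as did all protein-coding genes. Fgfr1 and Lama1, whose own state was the same in both lists, lay near opposite ends of the distribution.

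At the 8-cell stage none of the 10 genes differed in state between siRif1 and siControl embryos, where 7.33% of all protein-coding genes were LAD in siRif1 alone and 9.37% in siControl alone. The surroundings did differ. Coverage was lower in siRif1 than in siControl embryos by 50 points around Dab2, by 24.0 around Col4a1, by 19.1 around Fgfr1, by 18 around Pdgfra and by 8.90 around Foxa2. It was higher by 7.20 points around Lama1, by 5.01 around Sox17 and by 2.0 around Hnf4a, which is a single bin, and equal around Gata4 and Sox7. Coverage was lower in siRif1 for 47.9% of all protein-coding genes and higher for 40.6%. The median over the 10 genes was -4.45 points, against 0 for all protein-coding genes, whose central 80% ran from -24 to 16 points. Only Dab2 lay outside that central range, and 1.33% of all genes had a lower difference than Dab2. Col4a1 lay at its lower edge, and 9.45% of all genes had a lower difference than Col4a1.

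**Figure D3:**
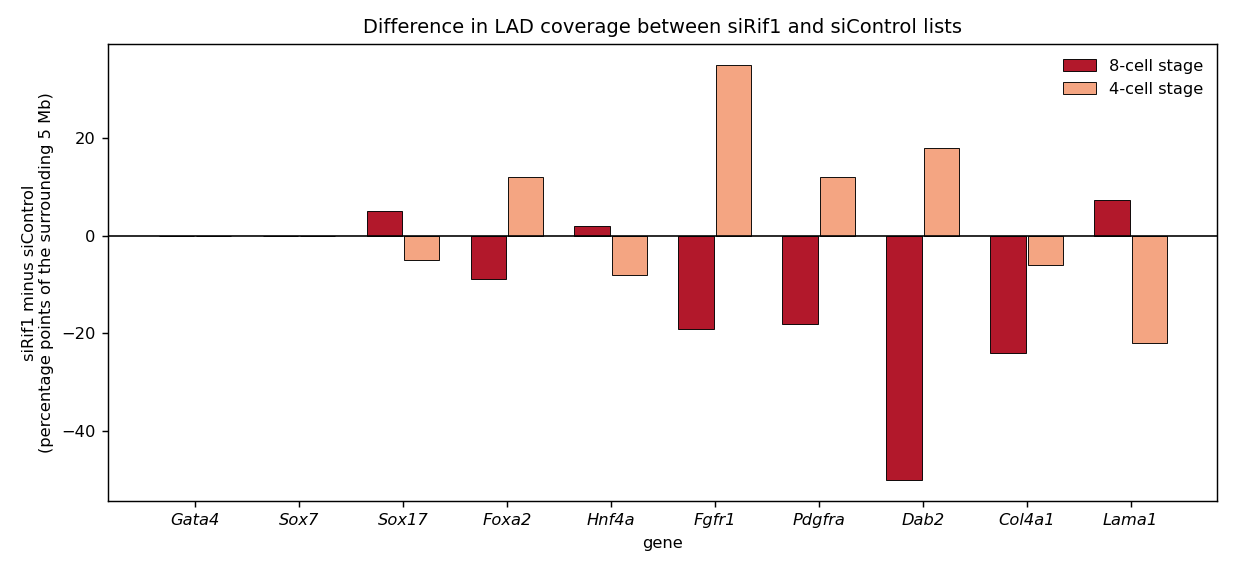
Difference in LAD coverage of the surrounding 5 Mb between siRif1 and siControl lists, in percentage points, for each gene at the 8-cell stage (left bars) and the 4-cell stage (right bars), with no error because each list is pooled. Foxa2, Fgfr1, Pdgfra and Dab2 have bars above 0 at the 4-cell stage and below 0 at the 8-cell stage. Sox17, Hnf4a and Lama1 have the reverse.

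Between the stages, no gene of the 10 was LAD in 8-cell embryos that was not already LAD in 4-cell embryos of the same treatment. In siControl embryos Sox17 was LAD at the 4-cell stage alone. In siRif1 embryos Pdgfra and Dab2 were LAD at the 4-cell stage alone. Of all protein-coding genes, in siControl embryos 11.2% were LAD at the later and not at the earlier stage and 9.59% the reverse, and in siRif1 embryos 8.83% and 8.58%. With 10 genes, counts of 0 to 2 are not read as different from these shares.

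Coverage around the genes also differed between the stages. In siControl embryos it was higher at the 8-cell stage for 6 genes and lower for 4, against 59.2% and 32.0% of all genes. The median was 4 points against 6 for all genes. The differences were 22.0 points for Fgfr1, 21.5 for Pdgfra, 20.9 for Foxa2 and -16.0 for Lama1. In siRif1 embryos it was higher at the 8-cell stage for 4 genes, lower for 5 and equal for Foxa2. Among all genes, 46.8% were higher and 43.7% lower. The median over the 10 genes was -1.25 points against 0. Several differences of the 10 genes were large beside those of other genes. Dab2 was lower by 56 points at the 8-cell stage, Col4a1 by 32.9 and Fgfr1 by 32, and 0.258%, 4.83% and 5.00% of all genes had a lower difference. The comparisons share lists with each other, so these values and those between siRif1 and siControl embryos are not independent.

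**Figure D4:**
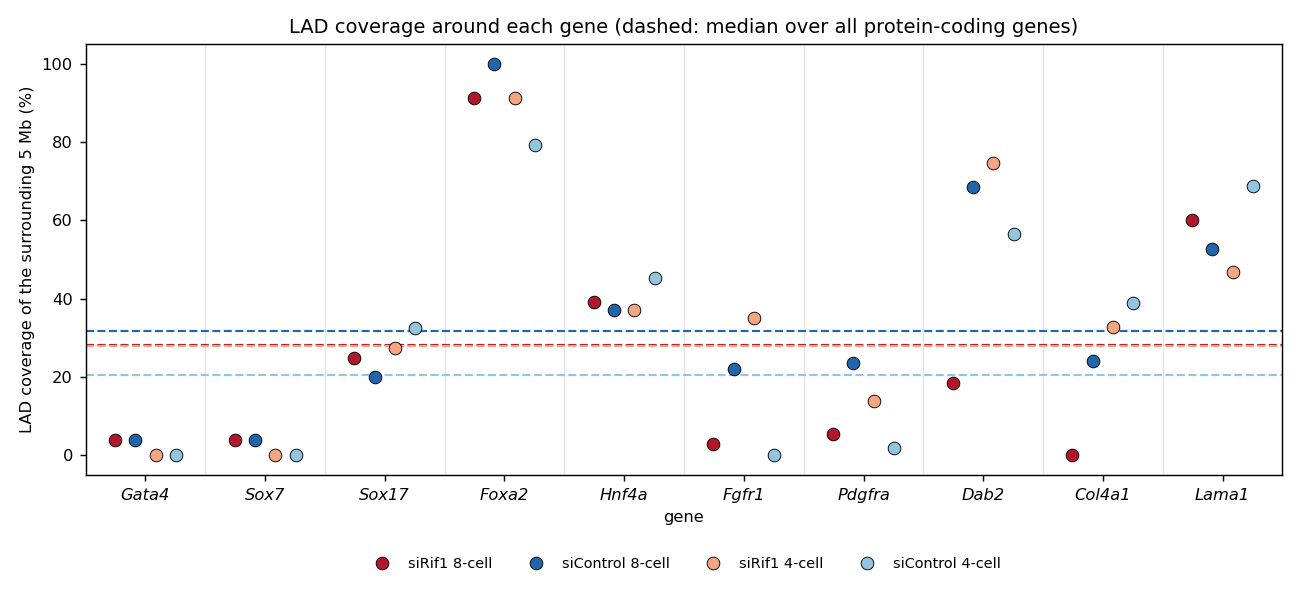
LAD coverage of the surrounding 5 Mb in percent (for Sox17, of the part inside the span) for each gene in the 4 pooled lists, with the median over all protein-coding genes of each list as a dashed line. Foxa2 is above 79% in every list, Gata4 and Sox7 are at 0 to 4%, and Dab2 is at 18.6% in siRif1 8-cell embryos and at 56.6 to 74.6% in the other 3 lists.

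The size of the window sets some of these directions. Of 40 differences in coverage (10 genes in 4 comparisons), 1 had the opposite sign in a window of 2 Mb and 6 in a window of 10 Mb, counting only differences above 2 points, which is 1 bin of the 5 Mb. None of these concerned Dab2 or Fgfr1, but a kept sign is not a kept size. A further 34 of the 40 differences changed in size in 2 Mb and 29 in 10 Mb. Around Fgfr1 the nearest border was 0.947 Mb away in siRif1 4-cell and 0.747 Mb in siControl 8-cell embryos. Most of the LAD length in its 5 Mb window in these 2 lists therefore lies outside a window of 2 Mb. In 5 Mb windows the median coverage over the 10 genes was 12.0% in siRif1 8-cell, 23.7% in siControl 8-cell, 33.9% in siRif1 4-cell and 35.6% in siControl 4-cell embryos. The medians over all protein-coding genes were 28.2%, 31.7%, 28.0% and 20.6% in the same order.

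What the genes share beyond their lineage is limited. Each was placed as a whole, since the gene body lay 100% inside or 0% inside LADs in every list, except Dab2 in siControl 8-cell embryos, with 0.151% of its length in a LAD. How many of all protein-coding genes were placed as a whole is not given here, so this is not read as a trait of these genes. They do not share a length: 7 are 46.9 to 141 kb long, above the median of 17.8 kb over all protein-coding genes, and Foxa2 (4.09 kb), Sox17 (6.50 kb) and Sox7 (7.03 kb) are below it. Of the 20 nearest protein-coding neighbours, 1 on each side of each gene, 18 had the same state as the gene in all 4 lists, and the exceptions were Gsx2 before Pdgfra and Ptger4 before Dab2. The median LAD was 0.9 to 1.1 Mb long, and the same share over all protein-coding genes was not computed. The count of 18 is therefore not read as a trait of these genes.

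Related genes were described in the same way, as counts in lists chosen with earlier results known. Among 9 other regulators of extraembryonic endoderm, 4 were LAD in siRif1 8-cell, 4 in siControl 8-cell, 4 in siRif1 4-cell and 5 in siControl 4-cell embryos. The shares over all protein-coding genes were 24.2%, 26.3%, 24.0% and 24.7%, and the difference from these was not tested. Foxa1 and the signalling genes Cer1, Dkk1 and Bmp2 were LAD in all 4 lists, as were 9.66% of all genes. Sall4, Hhex, Lefty1 and Ihh were outside LADs in all 4 lists, as were 57.4% of all genes. Gata6, a GATA factor of the primitive endoderm, was 1.17 Mb outside LADs in siRif1 8-cell, siControl 8-cell and siRif1 4-cell embryos and 0.669 Mb inside a LAD in siControl 4-cell embryos, the same pattern as Sox17.

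Of 15 genes of FGF, ERK and PDGF signalling in the span, 10 were outside LADs in all 4 lists (57.4% of all protein-coding genes were). The list had 1 LAD gene in siRif1 8-cell, 2 in siControl 8-cell, 3 in siRif1 4-cell and 5 in siControl 4-cell embryos, where the share over all genes was 24.2%, 26.3%, 24.0% and 24.7%. Fgfr2, the FGF receptor that acts beside Fgfr1, was LAD in both 4-cell lists and in neither 8-cell list. Sos1, which links the receptors to Ras, and Mapk3, which encodes an ERK kinase, were LAD in siControl 4-cell embryos alone, and Spry2, a feedback inhibitor, in all lists but siRif1 8-cell. Its midpoint was 5.62 kb outside a LAD in siRif1 8-cell and 5.62 kb inside in siControl 4-cell embryos, so its state there turns on less than 1 bin.

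Of 12 genes of the basement membrane and its assembly, 9 were outside LADs in all 4 lists, against 57.4% of all genes. The list had 2 LAD genes in siRif1 8-cell, 2 in siControl 8-cell, 1 in siRif1 4-cell and 1 in siControl 4-cell embryos. The shares over all genes were 24.2%, 26.3%, 24.0% and 24.7% in the same order. Lamb1, the beta chain of laminin-111, was LAD in both 8-cell lists, and in neither 4-cell list, but lay 2.61 kb inside the border in both 8-cell lists, so with LADs trimmed by 100 kb it was outside in all 4. The collagen-modifying enzyme gene Plod2 was LAD in all lists but siControl 4-cell, and P4ha1, of the prolyl 4-hydroxylase, was LAD in siControl 4-cell alone. Lamc1, the gamma chain, was outside LADs in all lists. Of 16 paralogs of the 10 genes in the span, 4 were LAD in all lists (Dab1, Foxa1, Col4a3 and Col4a4), against 9.66% of all genes. A further 6 were outside LADs in all 4 lists, against 57.4%. The paralogs had 5 LAD genes in siRif1 8-cell, 7 in siControl 8-cell, 7 in siRif1 4-cell and 9 in siControl 4-cell embryos. Col4a3 and Col4a4 adjoin each other on chromosome 1, so their states are not independent. Foxa1 and Gata6 are also among the 9 regulators above, and Fgfr2, Col4a2 and Gata3 are also in other lists of related genes. Lama3 was LAD in siControl 4-cell embryos alone. Lama2 was LAD in both siControl lists and in neither siRif1 list, but its midpoint was 0.762 kb inside the border in siControl 4-cell embryos. Placed by its start it was LAD in siControl 8-cell and siRif1 4-cell embryos, and with LADs trimmed by 100 kb in siControl 8-cell embryos alone. Lama4 was LAD in all lists but siControl 4-cell, with midpoints 37.9 kb inside in siRif1 8-cell, 62.1 kb inside in siControl 8-cell and 62.2 kb outside in siControl 4-cell embryos, each under 1 bin.

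The other early lineages were set beside these genes. At the 4-cell stage none of 9 epiblast and pluripotency genes and none of 10 trophectoderm genes in the span differed in state between siRif1 and siControl embryos, against 3 of the 10 primitive endoderm genes. At the 8-cell stage, 2 epiblast and pluripotency genes (Nanog and Sox2) lay in siRif1 LADs and outside siControl LADs, and the trophectoderm genes differed in both directions (Cdx2 LAD in siRif1 alone, Gata3 and Ascl2 in siControl alone), against 0 of the 10. Of all protein-coding genes, 7.37% and 8.08% differed in the 2 directions at the 4-cell stage and 7.33% and 9.37% at the 8-cell stage, so counts of 0 to 3 in 10 are not read as different from all genes. The differences between gene groups were not tested.

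Several of these states turn on less than 1 bin. At the 4-cell stage Pdgfra did so, and Gata3 lay 27.5 kb inside its LAD in siRif1 embryos. With LADs trimmed by 100 kb, Gata3 was LAD in siControl and not in siRif1 4-cell embryos, and 2 of the 10 primitive endoderm genes differed. With LADs extended by 100 kb, Elf5 was LAD in siRif1 and not in siControl 4-cell embryos, and Eomes the reverse. Of the primitive endoderm genes, Dab2 and Sox17 then differed. The 4-cell contrast between the gene groups thus depends on the borders. At the 8-cell stage Nanog was 11.1 kb inside a LAD and Gata3 72.5 kb outside in siRif1 embryos, and Sox2 was 51.2 kb outside in siControl embryos. With LADs trimmed, Nanog was outside LADs in all 4 lists, and with LADs extended by 100 kb, Sox2 and Gata3 were LAD in all 4. Eomes, which was LAD in both 8-cell lists, was LAD in siRif1 8-cell embryos alone with LADs trimmed. Elf5 was LAD in siControl and not in siRif1 8-cell embryos with LADs extended.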

How the data were processed

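The deposited files are 4 LAD lists, 1 per group, each made by the authors from all 3 replicates, per the series' design text. They give the start and end of each LAD on a 100-kb grid, with a score of 0 throughout that was not used. Per the submitters' processing notes, the tools used on the reads included Trimmomatic, Bowtie2, SAMtools and Picard, with mm10 (GRCm38). How LADs were called, with which threshold, and whether unfused Dam was corrected for is not given in the sources used here, and read depth is unknown, so no interval can be given for a LAD call.

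From these lists, the state, the distance to the nearest border and the coverage of a window were computed in Python 3.11.15 with NumPy 2.4.6, after the functions were tested on simulated lists. Coordinates are 1-based. The span of each chromosome is bounded by its outermost LADs over the 4 lists. Genes came from RefSeq GRCm38.p6, leaving out 226 entries on scaffolds. Their starts are given only where the promoter table holds them, and genes were placed by midpoint. The window was cut at the span. Genes, lists and alternatives were chosen with earlier results of these data known. Named genes are the 10 genes, the nearest protein-coding gene on each side, and related genes whose state differs between lists. Of 86 related genes, 77 are in the span, and a further gene of the design is not reported here. Related genes whose state was the same in all 4 lists (Foxa1, Cer1, Dkk1, Bmp2, Sall4, Hhex, Lefty1, Ihh, Dab1, Col4a2, Col4a3, Col4a4 and Lamc1) were named after their values were seen. Alternatives were another way to place a gene, a minimum LAD length of 300 kb, gaps of up to 200 kb bridged, borders shifted by 100 kb, and windows of 2 and 10 Mb.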

Additional observations from a re-analysis of the deposited data

Results flagged for a closer look

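Coverage of the 5 Mb around 3 of the 10 genes differed between siRif1 and siControl embryos in opposite directions at the 2 stages, by at least 10 points at each. Around Dab2 siRif1 minus siControl was -50 points at the 8-cell stage and 18 points at the 4-cell stage. Around Fgfr1 it was -19.1 points at the 8-cell stage and 34.9 points at the 4-cell stage. Around Pdgfra it was -18 points at the 8-cell stage and 12 points at the 4-cell stage. Foxa2 had the same signs (-8.90 and 12.0 points) but was under 10 points at the 8-cell stage. The signs were the other way round for Lama1 (7.20 and -22.0), Sox17 (5.01 and -5.01) and Hnf4a (2.0 and -8.0). These sizes hold for 5 Mb windows, and most of the 40 differences in coverage changed in size with the window. Each list is pooled, so the difference between the stages was not tested. Among all protein-coding genes 3631 (18.0%) differed in opposite directions by at least 10 points at each stage. A share of 13.7% did so with siRif1 higher at the 4-cell and lower at the 8-cell stage. The siControl 4-cell list, which covers less of the genome than the others, enters each 4-cell difference, and its part in the result was not tested.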

How the results depend on the processing

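The state of the genes was the same in all 4 lists when genes were placed by at least 50% of the gene body, when only LADs of at least 300 kb were kept and when gaps of up to 200 kb were bridged. It changed for Pdgfra and Dab2 under the others. Starts were given for 5 of the 10 genes, and the others kept their midpoint, so placing by starts could not change their state. Placed by their starts, 1 gene (Dab2) was LAD in siControl and not in siRif1 8-cell embryos, and 1 was LAD in siControl embryos at the 8-cell and not at the 4-cell stage, against 0 each. With LADs trimmed by 100 kb at each end, 1 gene (Dab2) in place of 2 was LAD in siRif1 4-cell embryos and not in siControl 4-cell embryos, and 1 in place of 2 was LAD in siRif1 4-cell and not in siRif1 8-cell embryos. With LADs extended by 100 kb, 1 gene was LAD in siRif1 and not in siControl 4-cell embryos, 1 in siControl and not in siRif1 8-cell embryos, 1 in siControl 8-cell and not in siControl 4-cell embryos, and 2 in siControl 4-cell and not in siControl 8-cell embryos (Sox17 and Pdgfra). Without LADs under 300 kb the median signed distance to the nearest border was -1.43 Mb in siRif1 8-cell embryos (-0.58 with all) and -0.51 Mb in siControl 4-cell embryos (-0.36 with all). Median coverage in windows of 2 Mb was 14.3% in siRif1 8-cell, 16.5% in siControl 8-cell, 16.6% in siRif1 4-cell and 30.1% in siControl 4-cell embryos, and in windows of 10 Mb it was 24.2% in siRif1 8-cell, 30.9% in siControl 8-cell and 39.0% in siRif1 4-cell embryos. Differences in coverage took the opposite sign around Sox17 in 2 Mb (siRif1 8-cell minus siRif1 4-cell, 14.7 points). In 10 Mb they did so around Foxa2 (-10.6) and Col4a1 (12.4) for siRif1 minus siControl at the 4-cell stage, around Gata4 (-6), Sox7 (-3) and Hnf4a (4) for siControl 8-cell minus siControl 4-cell, and around Pdgfra (11.3) for siRif1 8-cell minus siRif1 4-cell. A wider or narrower window covers other LADs by construction. No paired analysis was possible because each list pools its 3 replicates, and for the same reason no replicate could be left out. Depth is unknown, so whether a LAD border of 1 bin is measured or set by counting error was not tested.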

Other observations

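Of 11 genes for the uptake and transport of nutrients in the extraembryonic endoderm, 1 was LAD in siRif1 8-cell, 4 in siControl 8-cell, 4 in siRif1 4-cell and 6 in siControl 4-cell embryos. Over all protein-coding genes the shares were 24.2%, 26.3%, 24.0% and 24.7%. Cubn (the endocytic receptor cubilin), Afp (alpha-fetoprotein), Apob (apolipoprotein B) and Rbp4 (the retinol carrier) were LAD in all lists but siRif1 8-cell, a pattern that 3.29% of all protein-coding genes had. They lie on 4 different chromosomes. In siRif1 8-cell embryos their midpoints were outside LADs by 0.284 Mb (Cubn), 0.200 Mb (Afp), 1.10 Mb (Apob) and 0.279 Mb (Rbp4). In siControl 8-cell embryos Cubn lay 1.18 Mb, Afp 1.40 Mb, Apob 0.203 Mb and Rbp4 0.0790 Mb inside a LAD, the last under 1 bin. Ttr, the transthyretin gene, was LAD in siRif1 8-cell embryos alone, by 0.0307 Mb, and Lrp2, the partner receptor of cubilin, in siControl 4-cell embryos alone, by 0.0948 Mb. Apoe was also LAD in siControl 4-cell embryos alone, by 0.00122 Mb. The count of 4 in 11 was not tested against other genes, of which 9.37% were LAD in siControl and not in siRif1 8-cell embryos.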
